A study of Homo sapiens with 4 samples.

Results

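The comparison described here is hydroxyurea added to cells whose histone deacetylases were inhibited. It sets the array of HCT116 cells given MS-275 together with hydroxyurea (MS-275/HU) against the array of cells given MS-275 alone, which are 2 of the 4 arrays in the series. HCT116 cells derive from a human colorectal carcinoma. Cells on the MS-275/HU array received 2 µM MS-275 and 1 mM hydroxyurea for 24 h, and cells on the MS-275 array received 2 µM MS-275 for 24 h. The other 2 arrays hold cells given 1 mM hydroxyurea alone for 24 h (HU) and untreated cells. All 4 were prepared from total RNA of the same cell line in the same medium, and no genetic alteration was introduced. RNA was hybridised to Affymetrix GeneChip Human Gene 2.0 ST arrays, on which a set of probes for one transcript region, a transcript cluster, gives one intensity. Each condition has 1 array, so no difference below has a replicate check, no p-value is given, and sizes are described with the spread over all genes beside them.

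MS-275 (entinostat) is a benzamide that inhibits HDAC1, HDAC2 and HDAC3, enzymes that remove acetyl groups from histones and other proteins. Hydroxyurea blocks ribonucleotide reductase, so that deoxynucleotides run short and replication forks stall in S phase. Genes for replication and recombination are transcribed mainly around the G1/S transition under E2F transcription factors, and genes for mitosis later, under the MuvB complex with B-MYB and FOXM1. Before S phase the retinoblastoma family and the DREAM complex hold both groups low. The transcript level of these genes in a culture therefore moves with the share of cells in each phase. In RNA from a whole culture, fewer cells of a type and less RNA per cell cannot be told apart, and the phase composition of the hybridised cultures was not measured on the arrays.

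The platform's annotation paired 16098 of 53617 transcript clusters with 1 gene symbol. These make 14884 genes, each read from its brightest cluster. A gene was counted where its mean log2 intensity over the 4 arrays lay at or above the median of the named clusters, which corresponds to an intensity of 90.5. This kept 7649 genes and left out 7235. The median intensity over all clusters was 45.9 on the MS-275/HU array, 47.1 on the MS-275 array, 45.97 on the HU array and 47.0 on the untreated array. Of 12 markers of colon epithelium 8 had a named cluster, and KRT8, KRT18, KRT19 and EPCAM passed the filter, while the intestinal markers CDX1, CDX2, VIL1 and KRT20 lay below it. The 8 summed to 4030 with MS-275/HU and 4532 with MS-275, against 3926 with HU and 3804 in untreated cells. The 2 named fibroblast markers of 7 and the 3 endothelial markers of 5 lay below the filter on summed levels of 19.9 to 24.0 and 89.8 to 105. Of 7 haematopoietic markers 2 were named, CD14, below the filter, and CD68, a lysosomal protein of macrophages, which had 284 with MS-275/HU and 231 with MS-275, against 243 with HU and 177 in untreated cells. No marker with a named cluster was at 0.

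Among the genes past the filter, more were higher than lower where hydroxyurea had been added to MS-275. Of 7649 genes, 370 (4.84%) were higher with MS-275/HU than with MS-275 by 1.5-fold or more, and 79 (1.03%) were lower by as much. At least 2-fold, 54 genes (0.706%) were higher and 1 gene (0.0131%) was lower. The median difference over all genes was 0.03 on the log2 scale with an SD of 0.29 across genes, and 5% of genes lay below -0.37 and 5% above 0.57. At the edge of the upper group, SP110 was 1.501-fold higher and counted, and KATNA1 was 1.499-fold higher and did not count. At the edge of the lower group, METAP1D (1.502-fold lower) counted and COMMD1 (1.498-fold lower) did not. Among genes past the filter, brightness hardly changed the counts: 126, 117 and 127 genes were higher in the dimmest, middle and brightest of 3 equal groups of genes, and 28, 29 and 22 were lower. Below the filter the counts were even, with 192 of 7235 genes higher and 188 lower.

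**Figure D1:**
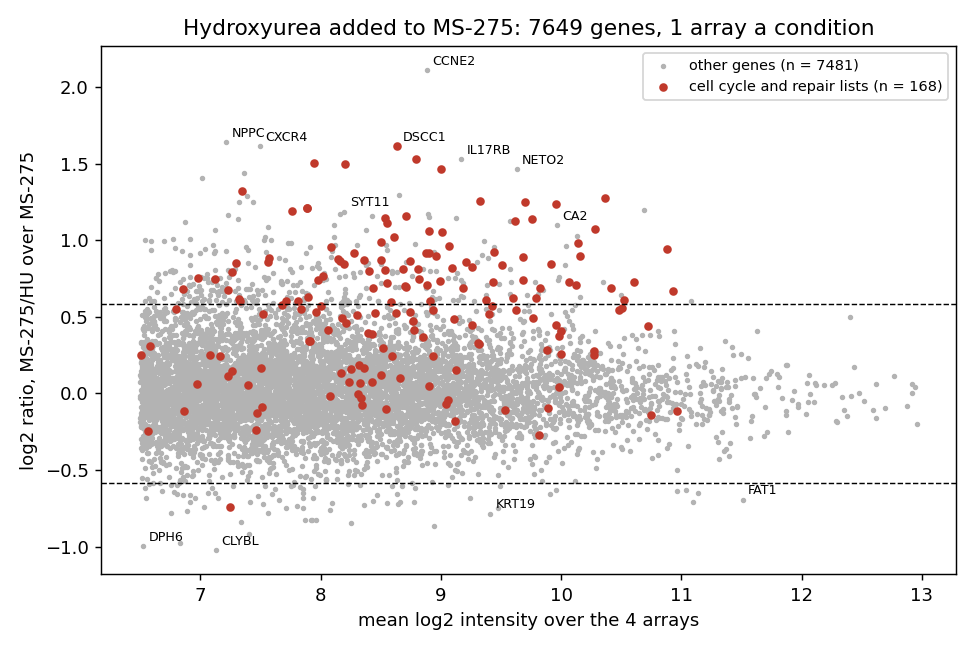
Log2 ratio of MS-275/HU over MS-275 (vertical axis) against the mean log2 intensity over the 4 arrays (horizontal axis) for the 7649 genes past the filter. Each point is a gene, red points are the 168 genes on 10 cell cycle and repair lists, and dashed lines mark 1.5-fold. The red points lie mostly above 0 at every brightness. The highest point is CCNE2, which is on none of the 10 lists.

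Genes of DNA replication, recombination and chromosome segregation accounted for 86 of the 370 higher genes. The 10 lists drawn up for origin licensing, fork synthesis, chromatin assembly, E2F and related transcription factors, the replication checkpoint, homologous recombination, the Fanconi anaemia pathway, mitotic entry, kinetochore and spindle, and condensin and cohesin held 168 genes past the filter. Of these, 86 (51.2%) were higher by 1.5-fold or more with MS-275/HU and 1 was lower, with a median log2 ratio of 0.60. Above 0 lay 149 of the 168. Among the 7481 other genes, 284 (3.80%) were higher and 78 were lower, with a median of 0.02. Not pooled were the G1/S list, which shares members with the 10, and the list of other DNA repair. The G1/S list had 3 of 8 genes higher and 1 lower, and other DNA repair had 4 of 21 higher. All lists were chosen with earlier results of these data known. The median intensity of the 168 genes was 428 with MS-275/HU and 286 with MS-275, against 482 with HU and 451 in untreated cells. The MS-275 array thus had the lowest of the 4 values for the group, and it was the lowest array for 139 of the 168 genes singly. With both drugs, 151 of the 168 lay within 1.5-fold of the untreated level. The ratios of MS-275 over untreated (median -0.60) and of MS-275/HU over untreated (median 0.01) share arrays with the main comparison and with each other, and add no independent evidence to it.

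Among the genes that drive entry into S phase, CCNE2 and CDC25A stood out. CCNE2, which encodes cyclin E2, an activator of CDK2, had the largest ratio of all genes. Its intensity was 739 with MS-275/HU and 171 with MS-275, against 1183 with HU and 333 in untreated cells. It was 4.32-fold higher with MS-275/HU than with MS-275 and 3.55-fold higher with HU than in untreated cells. CCNE1, the other cyclin E gene, differed less, with 572 with MS-275/HU and 375 with MS-275, against 834 with HU and 571 in untreated cells (1.52-fold with MS-275). CDC25A encodes the phosphatase that activates CDK2 and CDK1 and is destroyed when the checkpoint is on. Its intensity was 391.7 with MS-275/HU and 139 with MS-275, against 500 with HU and 274 in untreated cells. CDK6, the partner of D-type cyclins in G1, went the other way, with 762 with MS-275/HU and 1181 with MS-275 (1.55-fold lower), against 957 with HU and 1125 in untreated cells. Of the 8 genes of the G1/S list past the filter, 3 were higher and 1 was lower, and 5 lay above 0 (median 0.35).

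Factors that load and start the replicative helicase were higher as a group. Of 20 genes past the filter, 12 were higher with MS-275/HU by 1.5-fold or more, none was lower, and all 20 lay above 0 (median 0.73). Without MS-275, 1 of the 20 was higher with HU than in untreated cells (median 0.31), where 239 of all 7649 genes (3.12%) were higher and 97 (1.27%) lower. MCM10, which joins the helicase at activated origins, had 655 with MS-275/HU and 238 with MS-275, against 704 with HU and 621 in untreated cells. Its ratio was 2.76-fold with MS-275 and 1.13-fold without it. CDC6, which loads the MCM ring, had 1826 with MS-275/HU and 755 with MS-275, against 1817 with HU and 1209 in untreated cells. TICRR, the treslin protein needed to fire origins, was 2.36-fold higher, and CDC45, a helicase cofactor, 1.99-fold. CDT1, the second MCM loader, was 1.88-fold higher. The GINS genes GINS1, GINS2, GINS3 and GINS4, which complete the active helicase, were 1.68-fold to 1.85-fold higher. Among the MCM ring subunits, MCM2 and MCM3 were 1.63-fold and 1.65-fold higher, whereas MCM7 was the member nearest to no difference (1060.4 with MS-275/HU and 891 with MS-275, 1.19-fold).

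At the fork itself, all 5 genes with a named cluster were higher (median 0.91), out of 27 listed, so that the DNA polymerases themselves are not analysed here. DSCC1, a subunit of the clamp loader used in cohesion, had 578 with MS-275/HU and 189 with MS-275, against 631 with HU and 365 in untreated cells. PCNA, the sliding clamp that holds polymerases on DNA, had 1566 with MS-275/HU and 746 with MS-275, against 1736 with HU and 1177 in untreated cells. The nucleases FEN1 and DNA2, which process Okazaki fragments, were 1.88-fold and 1.84-fold higher. TOP2A, the topoisomerase that untangles replicated DNA, was 1.61-fold higher. Behind the fork, SLBP, which binds the stem-loop of histone mRNAs, was 1.92-fold higher, UHRF1, the maintenance methylation factor, 1.82-fold, and the histone chaperone ASF1B 1.59-fold. Its paralogue ASF1A differed little, with 988 with MS-275/HU and 1056 with MS-275. DTL, the adaptor of the ubiquitin ligase that destroys CDT1 in S phase, is on none of the lists and was picked here for its promoter. It had 1917 with MS-275/HU and 837 with MS-275, against 2586 with HU and 1807 in untreated cells.

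**Figure D2:**
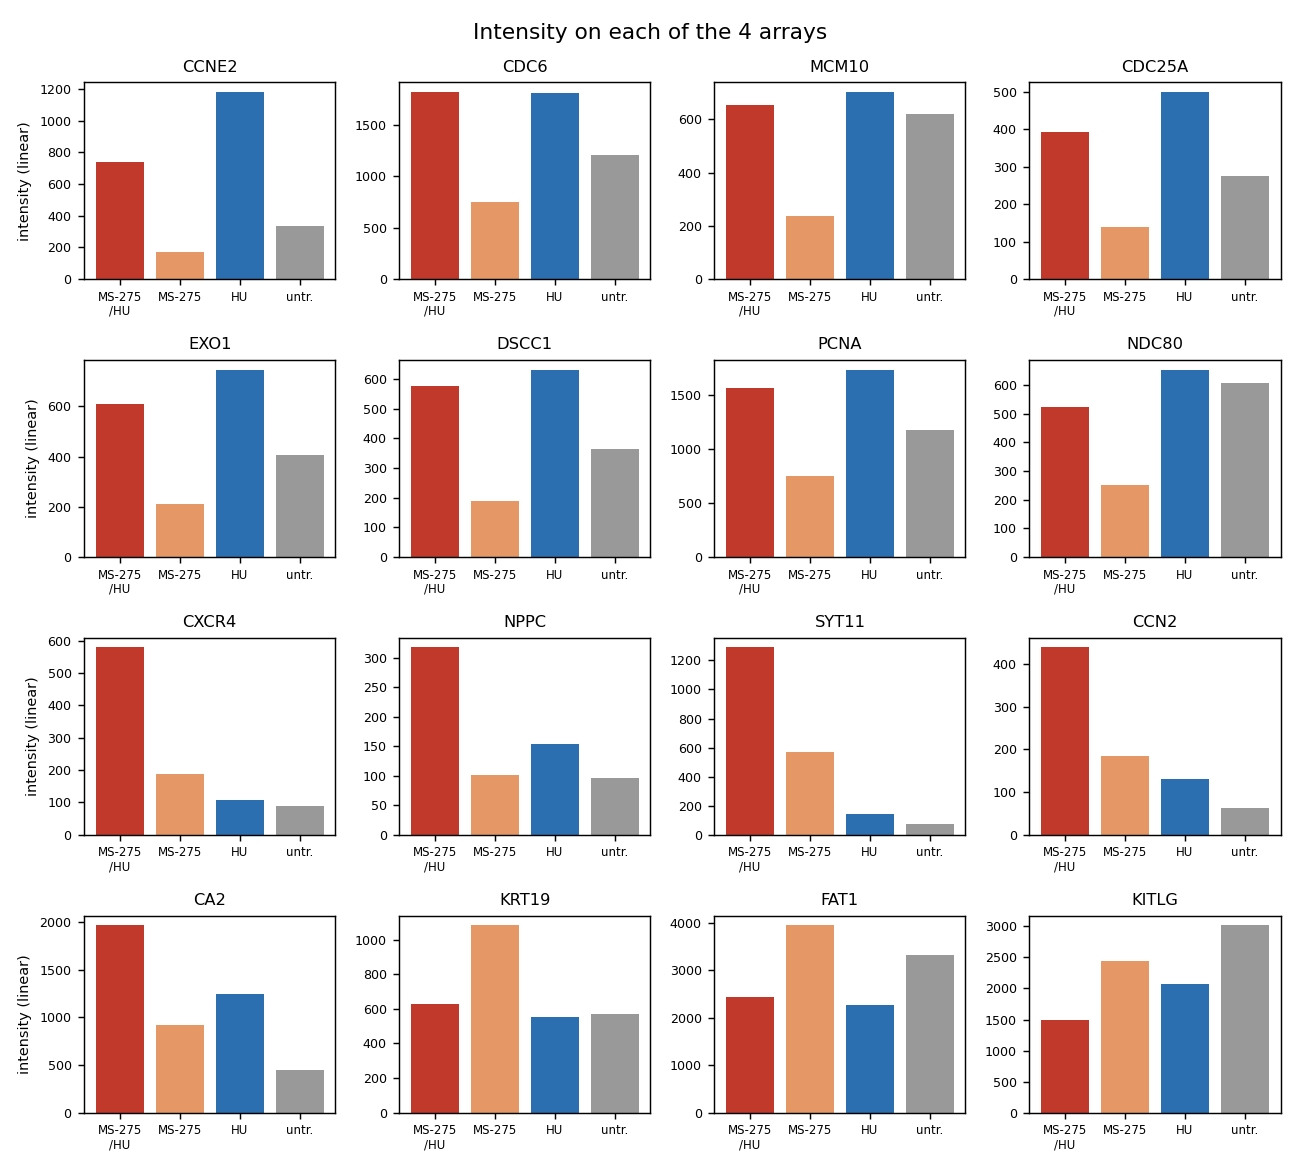
Deposited linear intensity (vertical axis, starting at 0 in each panel) on the 4 arrays for 16 genes, 1 bar per array, in the order MS-275/HU, MS-275, HU and untreated. The panels from CCNE2 to NDC80 have their lowest bar on the MS-275 array, the panels from CXCR4 to CCN2 have their highest bar on the MS-275/HU array, and CA2 was 1965 with MS-275/HU and 918 with MS-275.

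Among the transcription factors of the cycle, 8 of 14 genes were higher and none was lower (median 0.64, against 0.25 for HU over untreated). E2F7, a repressor that is itself an E2F target, had 815 with MS-275/HU and 342 with MS-275, against 1088 with HU and 558 in untreated cells. E2F8, its close relative, was 2.03-fold higher, and MYBL2, which encodes B-MYB, 1.98-fold. The activators E2F1 and E2F2 were 1.76-fold and 1.81-fold higher. LIN54 and LIN9, subunits of MuvB, were 1.67-fold and 1.60-fold higher, and FOXM1 was 1.52-fold higher. TFDP2, a dimerisation partner of E2F proteins, was nearest to no difference (335 with MS-275/HU and 320.5 with MS-275).

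The promoters of these genes were searched for the sequences that E2F and MuvB complexes are known to bind. Promoters of 300 bases (250 before and 50 after the gene's start, RefSeq, GRCh38.p14) were matched to 6108 of the 7649 genes. An E2F motif was counted where TTTCCCGC, TTTCGCGC, TTTGCCGC or TTTGGCGC stood on either strand, and a cell cycle homology region (CHR) where TTTGAA stood on either strand. The motifs were counted separately, so that a promoter may hold both. An E2F motif was present in 25.5% of promoters of genes at least 2-fold higher with MS-275/HU (12 of 47) and in 15.1% of those at least 1.5-fold higher (45 of 298). It was present in 1.75% of promoters of the lower genes (1 of 57), 5.78% of all genes past the filter and 3.33% of all 27305 promoters in the table. Of the genes at least 1.5-fold higher with HU than in untreated cells, 5.41% had the motif. Genes of the origin licensing list had it in 9 of 15 promoters (60.0%). Among the higher genes that are on none of the 10 cell cycle and repair lists, 9.42% had it (21 of 223).

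The stretches below are the 150 bases before the start of genes that carry the pattern, 5′ to 3′ on the gene's strand, with the E2F motif on either strand in capitals. CDC25A and PCNA belong to the lists above, DTL does not, and ULBP2 encodes a cell surface ligand described further below.
CDC25A, chr3:48188418-48188567, minus strand: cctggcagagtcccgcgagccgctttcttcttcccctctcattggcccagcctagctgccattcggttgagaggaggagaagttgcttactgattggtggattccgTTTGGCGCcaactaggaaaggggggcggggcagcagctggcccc
DTL, chr1:212035598-212035747, plus strand: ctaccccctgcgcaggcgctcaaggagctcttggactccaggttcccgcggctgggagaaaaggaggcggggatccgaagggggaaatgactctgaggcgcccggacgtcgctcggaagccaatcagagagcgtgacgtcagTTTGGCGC
PCNA, chr20:5126623-5126772, minus strand: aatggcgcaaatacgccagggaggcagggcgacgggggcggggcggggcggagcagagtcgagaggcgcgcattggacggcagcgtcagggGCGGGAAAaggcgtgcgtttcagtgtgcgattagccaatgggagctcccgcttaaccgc
ULBP2, chr6:149941864-149942013, plus strand: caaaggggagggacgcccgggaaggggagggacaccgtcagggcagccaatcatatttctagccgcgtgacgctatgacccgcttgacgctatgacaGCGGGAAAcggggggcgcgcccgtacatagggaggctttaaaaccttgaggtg
In CDC25A and DTL the motif reads TTTGGCGC on the gene's strand, and it begins 44 and 8 bases before the start. In PCNA and ULBP2 the other strand carries TTTCCCGC, so that GCGGGAAA is read here. DTL, PCNA and ULBP2 were not among the 15 highest genes. For contrast, NPPC and CXCR4, which like CDC25A were among them, had none of the 4 E2F spellings in their 300 bases. The same held for CLYBL, the gene with the lowest ratio.
NPPC, chr2:231926397-231926546, minus strand: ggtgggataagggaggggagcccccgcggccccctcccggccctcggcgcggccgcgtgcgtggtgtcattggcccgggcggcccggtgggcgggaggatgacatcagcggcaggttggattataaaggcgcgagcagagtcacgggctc
CXCR4, chr2:136118150-136118299, minus strand: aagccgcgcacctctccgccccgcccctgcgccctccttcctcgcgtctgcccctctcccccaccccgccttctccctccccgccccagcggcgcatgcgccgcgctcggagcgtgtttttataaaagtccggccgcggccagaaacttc
CLYBL, chr13:99606540-99606689, plus strand: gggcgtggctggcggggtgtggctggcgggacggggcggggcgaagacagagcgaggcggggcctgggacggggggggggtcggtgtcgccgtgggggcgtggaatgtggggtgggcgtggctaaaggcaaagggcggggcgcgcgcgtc
A match is a description of the letters and not evidence that a factor binds there.

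The CHR motif, known from promoters of mitotic genes, was found in 21.5% of promoters of the higher genes (64 of 298), against 9.56% of all genes past the filter and 15.4% of all promoters in the table. Kinetochore and spindle genes had it in 63.2% of promoters (24 of 38) and mitotic entry genes in 52.2% (12 of 23), whereas origin licensing genes had it in 1 of 15 promoters. Among the genes at least 2-fold higher the share was 14.9% (7 of 47). The lower genes had it in 10.5% (6 of 57) and the genes higher with HU than in untreated cells in 8.11% (15 of 185). The promoters of HJURP, the chaperone of the centromeric histone, and KIF11, the kinesin that separates spindle poles, are shown with the CHR in capitals.
HJURP, chr2:233854536-233854685, minus strand: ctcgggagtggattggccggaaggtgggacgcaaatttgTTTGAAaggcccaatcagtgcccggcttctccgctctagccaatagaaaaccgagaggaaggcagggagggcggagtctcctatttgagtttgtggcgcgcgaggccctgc
KIF11, chr10:92592980-92593129, plus strand: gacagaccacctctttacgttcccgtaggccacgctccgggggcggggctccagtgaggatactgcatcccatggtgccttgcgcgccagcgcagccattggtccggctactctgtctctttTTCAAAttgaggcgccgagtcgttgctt
HJURP carries TTTGAA on its own strand, 111 bases before the start, and KIF11 carries it on the other strand, 28 bases before. HJURP had an intensity of 929 with MS-275/HU and 557 with MS-275, against 1057 with HU and 834 in untreated cells. KIF11 had 988 with MS-275/HU and 613 with MS-275, against 1068 with HU and 1037 in untreated cells.

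**Figure D3:**
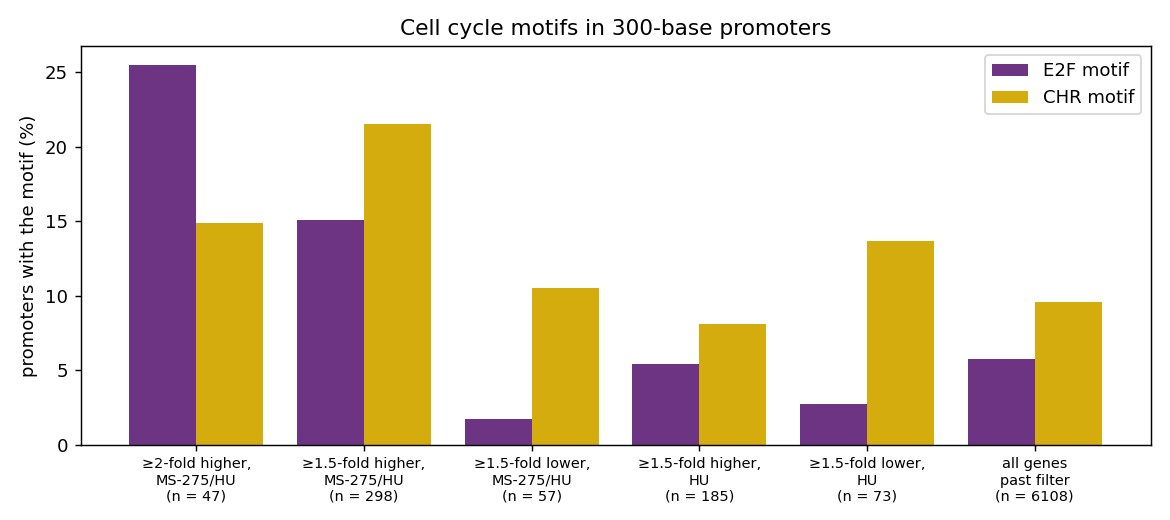
Percent of promoters with an E2F motif (purple) or a CHR motif (yellow) in genes past 1.5-fold or 2-fold in either comparison and in all genes past the filter, with the number of promoters under each pair of bars. The E2F share is 25.5% in the genes at least 2-fold higher with MS-275/HU and 5.78% in all genes.

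Of 20 homologous recombination genes past the filter, 11 were higher with MS-275/HU by 1.5-fold or more and none was lower (median 0.76). Without MS-275, 4 of the 20 were higher with HU (median 0.32). The median was 0.52 for the 7 resection genes and 0.74 for the 5 resolution genes. EXO1, the nuclease that extends resected ends, had 609 with MS-275/HU and 211 with MS-275, against 747 with HU and 406 in untreated cells. The translocases RAD54L and RAD54B were 2.28-fold and 2.23-fold higher, and BRIP1, the helicase bound to BRCA1, 2.20-fold. XRCC2, a recombination factor, was 2.08-fold higher. The MRN complex that senses breaks behaved unevenly. MRE11 was 1.43-fold higher, whereas RAD50 (715 with MS-275/HU and 771 with MS-275) and NBN (485 with MS-275/HU and 499 with MS-275) differed little. In the Fanconi anaemia pathway, which repairs crosslinks, 3 of 6 genes were higher, namely USP1 (1.89-fold), UBE2T (1.63-fold) and FAAP24 (1.53-fold). The list of other repair genes had 4 of 21 higher and a median of 0.10, beside 4.84% higher over all genes. These were RAD18 (1.74-fold), the ligase that modifies PCNA at stalled forks, PRIMPOL (1.73-fold), which reprimes there, the glycosylase NEIL3 (1.69-fold) and PARP2 (1.68-fold). PARP1, the main poly(ADP-ribose) polymerase, differed little (1159 with MS-275/HU and 1078 with MS-275).

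The replication checkpoint list was divided by role. Effectors had 4 of 6 genes higher (median 0.73), mediators 2 of 5 (median 0.49) and sensors 1 of 8 (median 0.11). CLSPN, which encodes claspin, the mediator that brings ATR to CHK1, had 326 with MS-275/HU and 141 with MS-275, against 305 with HU and 222 in untreated cells. WEE1, the kinase that restrains CDK1, had 721 with MS-275/HU and 404 with MS-275, against 988 with HU and 982 in untreated cells. Its HU and untreated arrays thus differed little, and the difference with MS-275 lay in a low value on the MS-275 array. CHEK1, the main kinase below ATR, had 428 with MS-275/HU and 309 with MS-275 (1.39-fold), against 525 with HU and 515 in untreated cells. CHEK2 was 1.73-fold higher in its brightest cluster, but 1.17-fold in its second, dim cluster. ATR itself was 1.09-fold lower with MS-275/HU (178 with MS-275/HU and 195 with MS-275), and TP53BP1 and MDC1, which gather at breaks, were 1.06-fold lower and within 0.01 of equal on the log2 scale.

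Of 23 genes of deoxynucleotide and nucleotide metabolism past the filter, 2 were higher and none was lower (median 0.16). Over all genes, 4.84% were higher. These 2 were 1 of the 3 reductase genes and 1 of 6 other genes of deoxynucleotide supply. RRM2, the subunit with the tyrosyl radical that hydroxyurea quenches, had 1585 with MS-275/HU and 778 with MS-275, against 1407 with HU and 911 in untreated cells. RRM1, the large subunit, was 1.49-fold higher and just below the threshold, which it passed (0.61 on the log2 scale) where each array was centred on its median, with 858 with MS-275/HU and 576 with MS-275. RRM2B, the small subunit induced by p53, was 1.34-fold higher, with 523 with MS-275/HU and 392.1 with MS-275, against 545 with HU and 341 in untreated cells (1.60-fold without MS-275). DCK, a salvage kinase, was 1.62-fold higher. Of the 14 genes of purine and pyrimidine synthesis past the filter, none passed 1.5-fold in either direction, with medians of -0.12 and -0.03 for 7 genes each.

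Genes of mitosis were higher as well. Every one of the 43 kinetochore and spindle genes past the filter lay above 0, and 25 were at least 1.5-fold higher (median 0.60). For HU over untreated 1 of the 43 was higher and the median was 0.11. CENPQ, a subunit of the inner kinetochore, had 395 with MS-275/HU and 139 with MS-275, against 324 with HU and 208 in untreated cells. CENPK and CENPU, from the same network, were 2.31-fold and 2.21-fold higher. SKA1, which tracks microtubule ends, was 2.18-fold higher. NDC80, which binds the microtubule, had 523 with MS-275/HU and 251 with MS-275, against 654 with HU and 607 in untreated cells. The 17 kinesins and spindle genes had a lower median (0.54) than the 26 kinetochore genes (0.68), and KIF20A was nearest to no difference (960 with MS-275/HU and 931 with MS-275). In the list of condensin and cohesin, 4 of 12 genes were higher, namely the acetyltransferase ESCO2 (1.94-fold), CDCA5 or sororin (1.81-fold), SMC2 (1.75-fold) and SMC1A (1.66-fold).

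The mitotic entry list was counted in parts. Kinases and cyclins had 6 of 14 genes higher (median 0.55). The other part had 3 higher and 1 lower of 12 (median 0.06). It holds genes of mitotic exit together with FBXO5 and the phosphatase genes CDC25B and CDC25C, which act at mitotic entry, so it is not an exit group alone. MASTL, the Greatwall kinase that inhibits PP2A-B55 through ENSA and ARPP19, had 1042 with MS-275/HU and 439 with MS-275, against 1302 with HU and 795 in untreated cells. FBXO5, the inhibitor of the anaphase-promoting complex known as EMI1, was 2.16-fold higher. CDK1 had 573 with MS-275/HU and 308 with MS-275, against 692 with HU and 498 in untreated cells. CCNB1, its partner cyclin B1, differed little, with 345 with MS-275/HU and 322 with MS-275, against 442 with HU and 549 in untreated cells. UBE2S, the enzyme that extends ubiquitin chains for the anaphase-promoting complex, was 1.67-fold lower (114 with MS-275/HU and 191 with MS-275) and the only lower gene among the 168. HASPIN, the histone H3 kinase of mitosis, is on no list but was among the 15 highest genes, with 528 with MS-275/HU and 215 with MS-275, against 512 with HU and 454 in untreated cells.

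**Figure D4:**
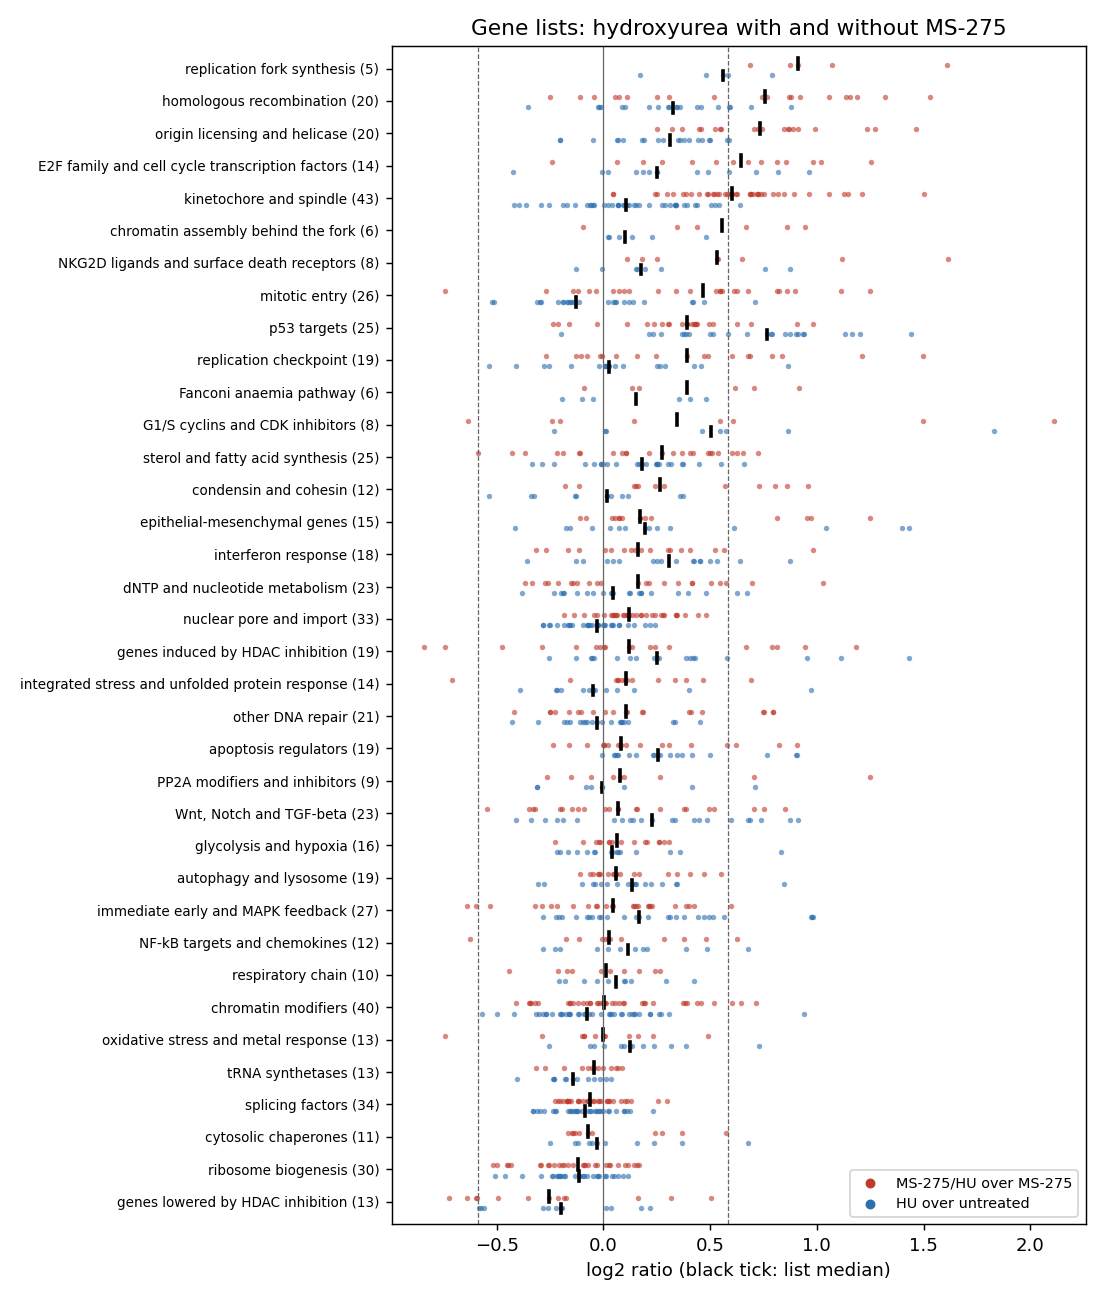
Log2 ratios of the genes past the filter on the 36 lists with at least 5 such genes, for MS-275/HU over MS-275 (red, upper row of each list) and HU over untreated (blue, lower row). Black ticks are list medians, dashed lines mark 1.5-fold, and the number in brackets is the number of genes. Replication fork synthesis has the highest median with MS-275 (0.91) and genes lowered by HDAC inhibition the lowest (-0.26), while the p53 targets have a median of 0.39 with MS-275 and 0.77 without.

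Targets of p53, the tumour suppressor that HCT116 cells carry in functional form, were higher in smaller number. Of 54 targets listed, 28 had a named cluster. CDKN1A, MDM2, GADD45A, FAS and DDB2 were among those without one and are not analysed here. Of 25 past the filter, 4 were higher with MS-275/HU than with MS-275 by 1.5-fold or more (median 0.39), beside 4.84% of all genes. With HU, 14 of the 25 were higher by as much than in untreated cells (median 0.77), beside 3.12% of all genes. The difference between the 2 backgrounds was not tested. TP73, a p53 relative that is also an E2F target, had 220 with MS-275/HU and 111 with MS-275, against 396 with HU and 206 in untreated cells. PMAIP1, the BH3-only protein NOXA, had 887 with MS-275/HU and 473 with MS-275, against 885 with HU and 474 in untreated cells. Its ratio was thus the same to within 0.01 on the log2 scale with and without MS-275. PLK3, a stress kinase, had 432 with MS-275/HU and 280 with MS-275 (1.54-fold), against 498 with HU and 216 in untreated cells. SESN2, a stress-induced inhibitor of mTORC1 signalling, was 1.61-fold higher. Among the apoptosis regulators, 3 of 19 were higher: PMAIP1, BCL2L11 (BIM, 1.77-fold) and BCL2 (1.54-fold), the last of which blocks what the first pair promotes.

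Genes that HDAC inhibition is known to raise were not one group. In the list of genes induced by HDAC inhibition, drawn up with results of these arrays known, 5 of 19 were higher with MS-275/HU than with MS-275 and 2 were lower (median 0.12). SYT11, a synaptotagmin, had 1289 with MS-275/HU and 567 with MS-275, against 140 with HU and 72.2 in untreated cells. DHRS2, a reductase used as a marker of HDAC inhibition, had 419 with MS-275/HU and 218 with MS-275, against 65.6 with HU and 49.1 in untreated cells. SNAI2, which encodes the transcription factor SLUG, had 949 with MS-275/HU and 540 with MS-275, against 177 with HU and 65.7 in untreated cells. PAG1, an adaptor that holds CSK at the membrane, was 1.73-fold higher, and ENPP2, which encodes autotaxin, 1.59-fold. VGF, a neuropeptide precursor, went the other way, with 178 with MS-275/HU and 318 with MS-275, against 113 with HU and 108 in untreated cells. MT1E, a metallothionein, was 1.67-fold lower, while its relative MT2A was equal on both arrays (1179 with MS-275/HU and 1177 with MS-275). With MS-275 alone MT1E was only 1.18-fold higher than in untreated cells. The filter takes the mean over all arrays, those compared included. DHRS2 and ENPP2 (45.3 with HU and 38.1 in untreated cells) lay below its cut-off on both arrays without MS-275. They passed it through their levels with MS-275 and are among the 5 higher genes. SYT11, SNAI2 and PAG1 lay below the cut-off in untreated cells only.

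Genes lowered by HDAC inhibition, a list drawn up in the same way, leaned to lower levels with both drugs. Of 13, none was higher with MS-275/HU than with MS-275 past 1.5-fold and 4 were lower (median -0.26), and 3 lay above 0. HMGA2, a chromatin protein of proliferating embryonic and tumour cells, had 166 with MS-275/HU and 274 with MS-275, against 615 with HU and 906 in untreated cells. EREG, the EGF receptor ligand epiregulin, had 892 with MS-275/HU and 1388 with MS-275, against 3330 with HU and 3882 in untreated cells. MYC, the growth transcription factor, had 390 with MS-275/HU and 590 with MS-275, against 553 with HU and 632 in untreated cells. With MS-275 alone MYC was only 1.07-fold lower than in untreated cells, so the list's name does not describe it here. PCDH7, a protocadherin, was 1.505-fold lower, and its 46.5 with MS-275/HU and 69.9 with MS-275 were dim.

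Of 23 mesenchymal genes listed, 5 were past the filter, and 4 of these were at least 1.5-fold higher. Of 10 epithelial genes past the filter none was higher or lower by as much, with 8 above 0 and a median of 0.08. CCN2, the matricellular growth factor CTGF, had 439 with MS-275/HU and 185 with MS-275, against 130 with HU and 62.8 in untreated cells. FN1, fibronectin, had 749 with MS-275/HU and 382 with MS-275, against 179 with HU and 117 in untreated cells. THBS1, thrombospondin, had 643 with MS-275/HU and 332 with MS-275, against 204 with HU and 77.2 in untreated cells. The fourth was SNAI2, given above. CCN2, THBS1 and SNAI2 lay below the cut-off of the filter in untreated cells and passed it on the mean over all arrays. KRT19, a simple epithelial keratin outside this list, was 1.72-fold lower, with 628 with MS-275/HU and 1083 with MS-275, against 552 with HU and 571 in untreated cells, whereas KRT18 and EPCAM had log2 ratios of -0.03 and 0.08. In the Wnt, Notch and TGF-beta list 3 of 23 were higher, namely NKD1 (1.80-fold), a feedback inhibitor of Wnt signalling, and the Notch ligands DLL4 (1.69-fold) and DLL1 (1.63-fold). Over all genes 4.84% were higher, and whether these short lists depart from that share was not tested.

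Of 8 genes past the filter on a list of NKG2D ligands and related surface proteins, 3 were higher, namely CXCR4 and 2 of the 7 ligands and other surface signals. Over all genes 4.84% were higher. CXCR4, the receptor of the chemokine CXCL12, had 579 with MS-275/HU and 189 with MS-275, against 108 with HU and 89.2 in untreated cells. It was 3.06-fold higher with MS-275/HU, and its ratio exceeded the one without MS-275 by 1.34 on the log2 scale, the largest such excess once small RNAs and uncharacterised loci were left out. ULBP2, a ligand of the activating receptor NKG2D, had 196 with MS-275/HU and 90.0 with MS-275, against 104 with HU and 104 in untreated cells. ULBP1, another such ligand, was 1.57-fold higher. CD47, the signal against phagocytosis, was nearest to no difference (1.08-fold).

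Other genes among the 15 highest have no common role with those above. NPPC, the precursor of C-type natriuretic peptide, had 318 with MS-275/HU and 102 with MS-275, against 153 with HU and 97.0 in untreated cells. IL17RB, a receptor subunit for IL-25, had 943 with MS-275/HU and 327 with MS-275, against 813 with HU and 437 in untreated cells. NETO2, an accessory protein of kainate receptors, had 1129 with MS-275/HU and 409 with MS-275, against 1317 with HU and 648 in untreated cells. DRAXIN, an axon guidance protein, was 2.71-fold higher, RIBC2, a protein of ciliary microtubules, 2.65-fold, and TMSB15A, a thymosin that binds actin, 2.44-fold. Of 17 genes of sterol synthesis and its control, 4 were higher (INSIG1 1.65-fold, IDI1 1.58-fold, EBP 1.54-fold and HMGCS1 1.52-fold) and SREBF1, a transcription factor of lipid synthesis, was 1.504-fold lower, while none of 8 fatty acid genes passed 1.5-fold. In the interferon list, HERC5, a ligase for ISG15, was the 1 gene of 18 past 1.5-fold (1.98-fold higher), where 4.84% of all genes were higher.

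Signalling and stress lists held genes past 1.5-fold in both directions, and some held none. As background, 4.84% of all 7649 genes passed 1.5-fold upward and 1.03% downward. The lists are short, and whether any of them departs from this background was not tested. Of 12 NF-kB targets and chemokines past the filter, the subunit REL was 1.54-fold higher with MS-275/HU and BCL3, a nuclear cofactor of NF-kB, 1.54-fold lower. Of 27 immediate early and MAPK feedback genes, HBEGF, an EGF receptor ligand, was 1.52-fold higher, with 220 with MS-275/HU and 145 with MS-275, against 205 with HU and 104 in untreated cells, while MYC and EREG were lower as given above. Of 14 genes of the integrated stress and unfolded protein response, SESN2 was higher and DDIT4, an inhibitor of mTORC1 also known as REDD1, was 1.63-fold lower (298 with MS-275/HU and 487 with MS-275). Of 9 modifiers and inhibitors of the phosphatase PP2A, MASTL was higher, and CIP2A, which stabilises MYC by restraining PP2A, was 1.63-fold higher (747 with MS-275/HU and 458 with MS-275). MT1E was the 1 gene past 1.5-fold among 13 of the oxidative stress and metal response, and there was none among 16 of glycolysis and hypoxia, 10 of the respiratory chain and 19 of autophagy and lysosome.

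Housekeeping lists had no gene past 1.5-fold. This held for 30 ribosome biogenesis genes (median -0.12), 34 splicing factors (median -0.06), 13 tRNA synthetases (median -0.04), 11 cytosolic chaperones (median -0.07) and 33 nuclear pore and import genes (median 0.12). The targets of MS-275 did not differ by much. HDAC1 had 1758 with MS-275/HU and 1837 with MS-275, HDAC2 144 with MS-275/HU and 147 with MS-275, and HDAC3 674 with MS-275/HU and 641 with MS-275. Of the chromatin modifiers, 3 of 40 were higher, a share not far from the 4.84% of all genes. They were the acetyltransferases KAT2B (1.64-fold) and HAT1 (1.52-fold) and the Polycomb methyltransferase EZH2 (1.56-fold).

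The 15 lowest genes were in part very long. CLYBL, a mitochondrial enzyme that degrades citramalyl-CoA, had 120 with MS-275/HU and 245 with MS-275, against 84.1 with HU and 153 in untreated cells. DPH6, an enzyme of diphthamide synthesis, had 63.1 with MS-275/HU and 126 with MS-275, against 58.6 with HU and 155 in untreated cells. SBF2, a myotubularin-related protein, had 171 with MS-275/HU and 304 with MS-275, against 169 with HU and 339 in untreated cells. MED13L, a subunit of the Mediator kinase module, had 509 with MS-275/HU and 856 with MS-275, against 570 with HU and 1023 in untreated cells. These 4 genes span 303, 401, 526 and 319 kb in the RefSeq annotation of GRCh38.p14, and each was lower with HU also without MS-275. Short genes were also present. GPR52, an orphan receptor with a gene of 1.58 kb, was 1.89-fold lower. DBP, a transcription factor of clock output, had 314 with MS-275/HU and 574 with MS-275, against 465 with HU and 700 in untreated cells. TIMM8B, a chaperone of mitochondrial import with a gene of 1.96 kb, was 1.66-fold lower.

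Over all genes past the filter, the lower genes were found at both ends of the length range. Of 454 genes of at least 200 kb, 18 (3.96%) were lower with MS-275/HU than with MS-275 by 1.5-fold or more and 9 (1.98%) were higher. Of 1831 genes under 10 kb, 37 (2.02%) were lower, and in the 4 classes between these the share was 0.348% to 0.613%. Without MS-275, 39 of the 454 long genes (8.59%) were lower with HU and 1 (0.22%) was higher. The median length was 31.4 kb for the higher genes, 13.6 kb for the lower genes and 28.2 kb for all genes, against 18.9 kb and 150 kb for the genes higher and lower with HU than in untreated cells. Other long genes among the lower ones were TIAM1, an exchange factor for RAC1 (525 with MS-275/HU and 841 with MS-275, 441 kb), and PARD3, a polarity protein (192 with MS-275/HU and 296 with MS-275, 706 kb). They were picked after the values were seen. Length was taken from the annotation, and its part in the differences was not tested.

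**Figure D5:**
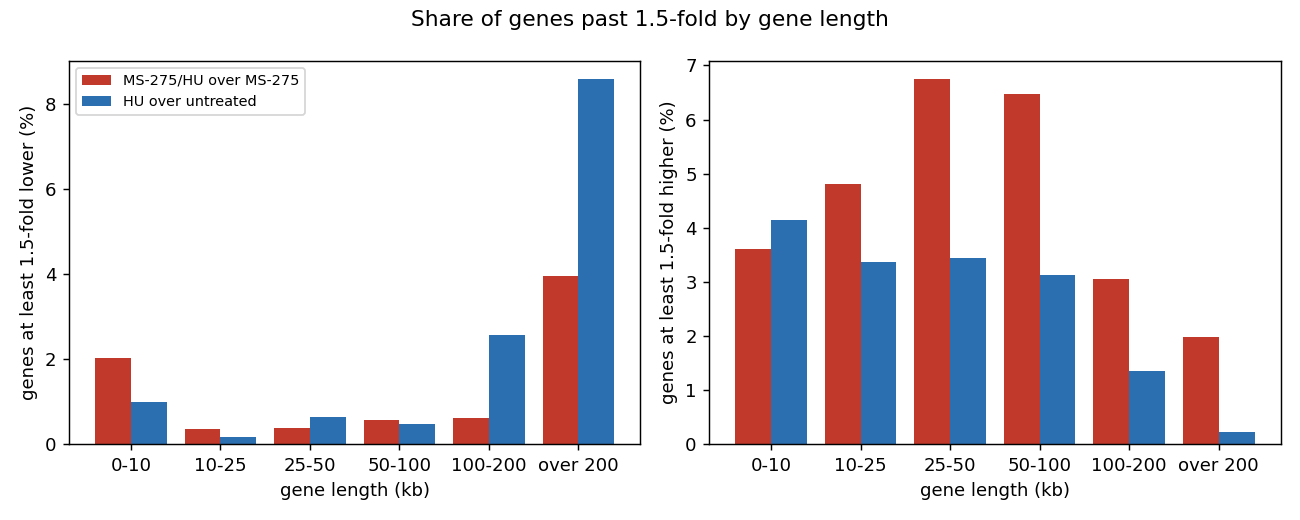
Percent of genes past the filter that were lower (left) or higher (right) by 1.5-fold or more, by gene length in kb, for MS-275/HU over MS-275 (red) and HU over untreated (blue). In genes over 200 kb, 3.96% were lower with MS-275/HU than with MS-275 and 8.59% were lower with HU than in untreated cells.

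Some of the short lower genes were microRNA genes. Of 193 past the filter, 11 (5.70%) were lower with MS-275/HU than with MS-275 and 7 (3.63%) were higher (median -0.16), against 1.03% and 4.84% of all genes. The probes of a microRNA gene read the locus and its precursor, and not the mature microRNA alone. Of the lower loci, 3 widely studied ones are given with their mature sequences (RefSeq, 5′ to 3′, seed of bases 2 to 8 in capitals), picked after the values were seen.
hsa-miR-21-5p: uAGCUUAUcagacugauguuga
hsa-miR-31-5p: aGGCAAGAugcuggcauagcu
hsa-miR-181b-5p: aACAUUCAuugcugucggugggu
No seed is shared among the 3. MIR21 had 177 with MS-275/HU and 314 with MS-275, against 250 with HU and 245 in untreated cells. MIR31 had 136 with MS-275/HU and 242 with MS-275, against 260 with HU and 412 in untreated cells. MIR181B1 had 245 with MS-275/HU and 413 with MS-275, against 152 with HU and 188 in untreated cells. For MIR181B1 and MIR21 the MS-275 array was the highest of the 4, whereas for MIR31 it was the untreated array.

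Set beside hydroxyurea alone, which shares no array with the main comparison, part of the genes recurred. Of the 370 genes higher with MS-275/HU than with MS-275, 104 were also at least 1.5-fold higher with HU than in untreated cells, which is 28.1% of the 370 and 43.5% of the 239. Of the 79 lower genes, 21 were also lower without MS-275, which is 26.6% of the 79 and 21.6% of the 97. Over all 7649 genes, 3.12% were higher and 1.27% lower with HU than in untreated cells. For MS-275/HU over MS-275 these shares were 4.84% and 1.03%. By sign alone, 336 of the 370 (90.8%) lay above 0 without MS-275, against 52.6% of all 7649 genes, and 64 of the 79 (81.0%) lay below 0, against 47.4% of all. Some genes passed 1.5-fold with hydroxyurea only where MS-275 was absent. GALNT5, a glycosyltransferase, had 140 with MS-275/HU and 141 with MS-275, against 364 with HU and 144 in untreated cells. FXYD3, a regulator of the sodium pump, had 103 with MS-275/HU and 101 with MS-275, against 291 with HU and 124 in untreated cells. CPA4, a carboxypeptidase, had 411 with MS-275/HU and 391.9 with MS-275, against 587 with HU and 242 in untreated cells. MKX, a homeobox factor of tendon, was low with MS-275 in either case, with 120 with MS-275/HU and 124 with MS-275, against 266 with HU and 630 in untreated cells. GSTT2 and GSTT2B also had lower ratios with MS-275 (1.32-fold and 1.17-fold) than without it, but they are near-identical copies whose probes can share signal. Whether these ratios differ between the backgrounds was not tested, since each rests on 1 array a side.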

How the data were processed

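Total RNA of HCT116 cells was hybridised to 1 array for each of 4 conditions. The authors processed the arrays with RMA (background correction, normalization and summary over probes) and deposited an intensity for every transcript cluster. That the deposited intensities are on a linear scale follows from their range of 1.92 to 17815. Which RMA software and genome build were used is not given in the sources used here. Gene symbols came from the platform's annotation, which named 16098 of 53617 clusters with 1 gene symbol, 0 with several and 37519 with none. All 16098 matched RefSeq (GRCh38.p14) by Entrez identifier and no symbol changed. Counts of list members cover named genes only, and other members are not analysed here. For 779 genes with several clusters the brightest was used. Ratios are log2 of the deposited values, with no pseudocount and no further scaling. With 1 array a condition no test was run and counting depth does not apply, so the number of arrays limits the precision.

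The genes named are the 15 highest and 15 lowest ratios (without small RNAs, uncharacterised loci, antisense genes and similar symbols), up to 6 members of each list past 1.5-fold and the one nearest to no difference (all members past it where 8 or fewer were), genes whose products the study names, and the 5 highest and 5 lowest differences between the ratios with and without MS-275. Not every gene so chosen is named, and other genes named, apart from those in list counts, were picked after their values were seen. The members, the 37 lists and the rules were chosen with earlier results of these data known, and 5 further lists, given under the other observations, were drawn up after the values were seen. The proteasome list had no named cluster. Alternatives were other filters, a 2-fold threshold, averaging a gene's clusters, centring, quantile normalization and log2(intensity + 16). The scripts used Python 3.11.15, numpy 2.4.6, pandas 2.3.3, scipy 1.17.1 and matplotlib 3.10.9 and were tested on simulated data.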

Additional observations from a re-analysis of the deposited data

Results flagged for a closer look

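Of the 370 genes at least 1.5-fold higher with MS-275/HU than with MS-275, 34 lay below 0 for HU over untreated, 17 of them at or below -0.1 on the log2 scale. Among the genes named by rule and the list medians, those given here had such a ratio of opposite sign at or below -0.1. With 1 array a condition the difference was not tested. CCDC18, a centrosomal protein, had a log2 ratio of 0.97 for MS-275/HU over MS-275 and -0.17 for HU over untreated. NEK2, a kinase of centrosome separation, had 0.81 for MS-275/HU over MS-275 and -0.19 for HU over untreated. TTK, the MPS1 kinase of the spindle checkpoint, had 0.82 with MS-275 and -0.16 without it. ULBP1 had 0.65 with MS-275 and -0.13 without it. The median over the mitotic entry list was 0.47 with MS-275 and -0.13 without it. For NEK2, the intensities were 591 with MS-275/HU and 336 with MS-275, against 425 with HU and 484 in untreated cells. Outside that rule, the small RNA locus MIR891A, picked after its values were seen, passed 1.5-fold in opposite directions, with 0.75 for MS-275/HU over MS-275 and -0.72 for HU over untreated, and it was the 1 gene to do so.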

How the results depend on the processing

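The count of higher genes was 370 and moved to 562 without a filter on dim genes, 185 with the filter at the 75th percentile and 54 at 2-fold. The count of lower genes was 79 and moved to 267, 34 and 1 under the same settings. The remaining settings gave 316 to 413 higher and 54 to 96 lower genes. Higher genes made up 82.4% of all genes past 1.5-fold, 67.8% without a filter, 87.3% with each array centred on its median and 77.4% after quantile normalization. Of 370 higher genes, 329 remained higher after quantile normalization, and of 79 lower genes, 60 remained lower after centring. The medians of all 36 lists stayed within the interval of the main median over the list's genes, which is wide for short lists, under all 6 settings tried for them. Of 831 values recomputed for 179 named genes, 20 slipped below 1.5-fold (of BCL2, BCL3, CCNE1, CHEK2, FAAP24, HAT1, HBEGF, HMGCS1, LIN9, MYC, PCDH7, SREBF1 and TIPIN), none changed direction past it, and RRM1 passed it after centring (0.61). CHEK2 slipped to 0.51 with the mean of its clusters. The share of higher genes with an E2F motif was 21.6% with the filter at the 75th percentile, and the median length of the lower genes was 24.6 kb there, both chosen after seeing the data. No paired analysis was possible because each group has 1 array. For the same reason no array could be left out, and the spread between cultures is unknown.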

Other observations

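Of 27 genes past the filter on a list of fork protection and recombination accessory factors, 18 were higher with MS-275/HU than with MS-275 by 1.5-fold or more and none was lower (median 0.73), against 6 with HU over untreated. DDIAS, MCM8, a helicase of recombination, and MND1, a partner in strand exchange, were 2.24-fold, 2.18-fold and 2.09-fold higher. Of 26 centriole duplication genes, 8 were higher (median 0.35), led by PLK4, the kinase that starts duplication, with 420 with MS-275/HU and 189 with MS-275, against 457 with HU and 389 in untreated cells. STIL, its partner, was 1.95-fold higher.

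Of 10 genes of prostanoid and related lipid signalling, 3 were higher, beside 4.84% of all genes. PTGS2, the inducible cyclooxygenase, had 224 with MS-275/HU and 111 with MS-275, against 133 with HU and 63.6 in untreated cells. PTGS1 was 1.75-fold higher, and PTAFR, the receptor of platelet-activating factor, 2.20-fold. Of 11 cysteine cathepsins and carbonic anhydrases, CTSV (2.25-fold), CA2 (2.14-fold) and CA8 (1.93-fold) were higher. Of 9 clock output genes, 1 passed 1.5-fold, which was DBP. All these lists were drawn up after the values were seen.

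Clusters with no gene name had another balance. Of 9228 past the filter, 350 (3.79%) were higher and 276 (2.99%) lower with MS-275/HU than with MS-275. Of the named genes below the filter, 192 of 7235 were higher and 188 lower. Among 28 genes past 1.5-fold that have several clusters, 33 of the 42 clusters not used had the same sign as the one used.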
